A study of Sus scrofa with 63 samples.

Results

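The 10 genes described here belong to the intestinal brush border and were followed in the jejunum of pig fetuses: the disaccharidases LCT, SI, MGAM and TREH, the peptidases ANPEP, DPP4, ENPEP, MEP1A and MEP1B, and the enteropeptidase TMPRSS15. They were read through all probes of the array whose gene name is one of these symbols, in any letter case. This gave 19 probes of 60305, of which 18, covering 9 genes, were among the 40515 probes tested. The TREH probe did not pass the filter on dim probes. RNA came from a middle segment of the jejunum of 63 male fetuses, 1 array per fetus. The mothers were Large White (LW) or Meishan (MS) sows, and because semen of LW and MS boars was pooled, litter mates could differ in sire breed. At day 90 of gestation there were 9 LW, 6 MS, 9 LWMS and 8 MSLW fetuses, and at day 110 there were 9 LW, 7 MS, 9 LWMS and 6 MSLW fetuses. LWMS fetuses had an MS mother and an LW sire, and MSLW fetuses had an LW mother and an MS sire. The study compared the ages and genotypes because newborns of the breeds differ in survival. No fetus was treated. Fetuses are named by genotype and number. The sow of each fetus is not in the labels, so litter mates were treated as independent fetuses.

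Enterocytes carry these enzymes on their microvilli and complete digestion at the membrane. Lactase (LCT) splits the sugar of milk, whereas sucrase-isomaltase (SI), maltase-glucoamylase (MGAM) and trehalase (TREH) split sucrose, starch fragments and trehalose. Aminopeptidase N (ANPEP), dipeptidyl peptidase 4 (DPP4), aminopeptidase A (ENPEP) and the meprin subunits (MEP1A and MEP1B) cut peptides, and enteropeptidase (TMPRSS15) activates pancreatic trypsinogen. Lactase is typical of the suckling period, and sucrase of the period around weaning in many mammals.

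The probe sequences below define what was measured. They are given 5′ to 3′ as the scanner files list them, in lower case with no part singled out. The first 4 are the disaccharidase probes that carry one of the gene names, and the last 3 are probes of peptidases whose results are set against another probe of the same gene.
LCT O2807: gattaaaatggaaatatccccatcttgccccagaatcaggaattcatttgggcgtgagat
SI O2107: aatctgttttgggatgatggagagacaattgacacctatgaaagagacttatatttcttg
MGAM O2813: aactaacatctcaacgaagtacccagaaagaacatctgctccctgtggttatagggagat
TREH O2804: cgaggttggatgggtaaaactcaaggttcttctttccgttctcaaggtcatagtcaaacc
ANPEP A_72_P632095: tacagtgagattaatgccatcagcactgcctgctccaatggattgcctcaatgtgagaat
DPP4 O11718: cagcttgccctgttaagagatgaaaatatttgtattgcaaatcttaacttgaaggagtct
MEP1A A_72_P170236: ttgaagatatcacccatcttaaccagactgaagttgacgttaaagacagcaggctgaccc
Their strand and their place in the transcript were not checked here. Further probes name a disaccharidase in their description and were not members: a copy of the LCT probe with the same sequence, 1 of MGAM and 2 of SI. The MGAM one was well above background on 10 of the 63 arrays, and those of SI on 2 and on 1. The 4 disaccharidase probes above refer to database entries that were not found in the pig RefSeq table used here.

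Values are log2 signals from which the 75th percentile of the same array was taken away, so that 0 is the level of that percentile. A gene was represented by its brightest tested probe. Signals of different probes are not compared as levels. Between 51.2% and 87.6% of probes were well above background on an array, and no spot was saturated. Markers of epithelium and of smooth muscle were both present: the mean of the epithelium markers lay between 3.24 and 4.35 in all fetuses, and that of the smooth muscle markers between 4.37 and 5.74, since the whole wall was sampled. The enterocyte markers ranged from 4.39 to 5.82 at day 90 but from 0.83 to 6.74 at day 110. MS fetus 632 (day 110) had the lowest enterocyte value and the highest measured signal of FABP6, an ileal bile acid binding protein, at 3.56 (FABP6 had no value in 1 fetus of day 110, MSLW fetus 851). Several values are also given without it. In whole tissue, fewer cells of a type and less RNA per cell cannot be told apart.

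**Figure D1:**
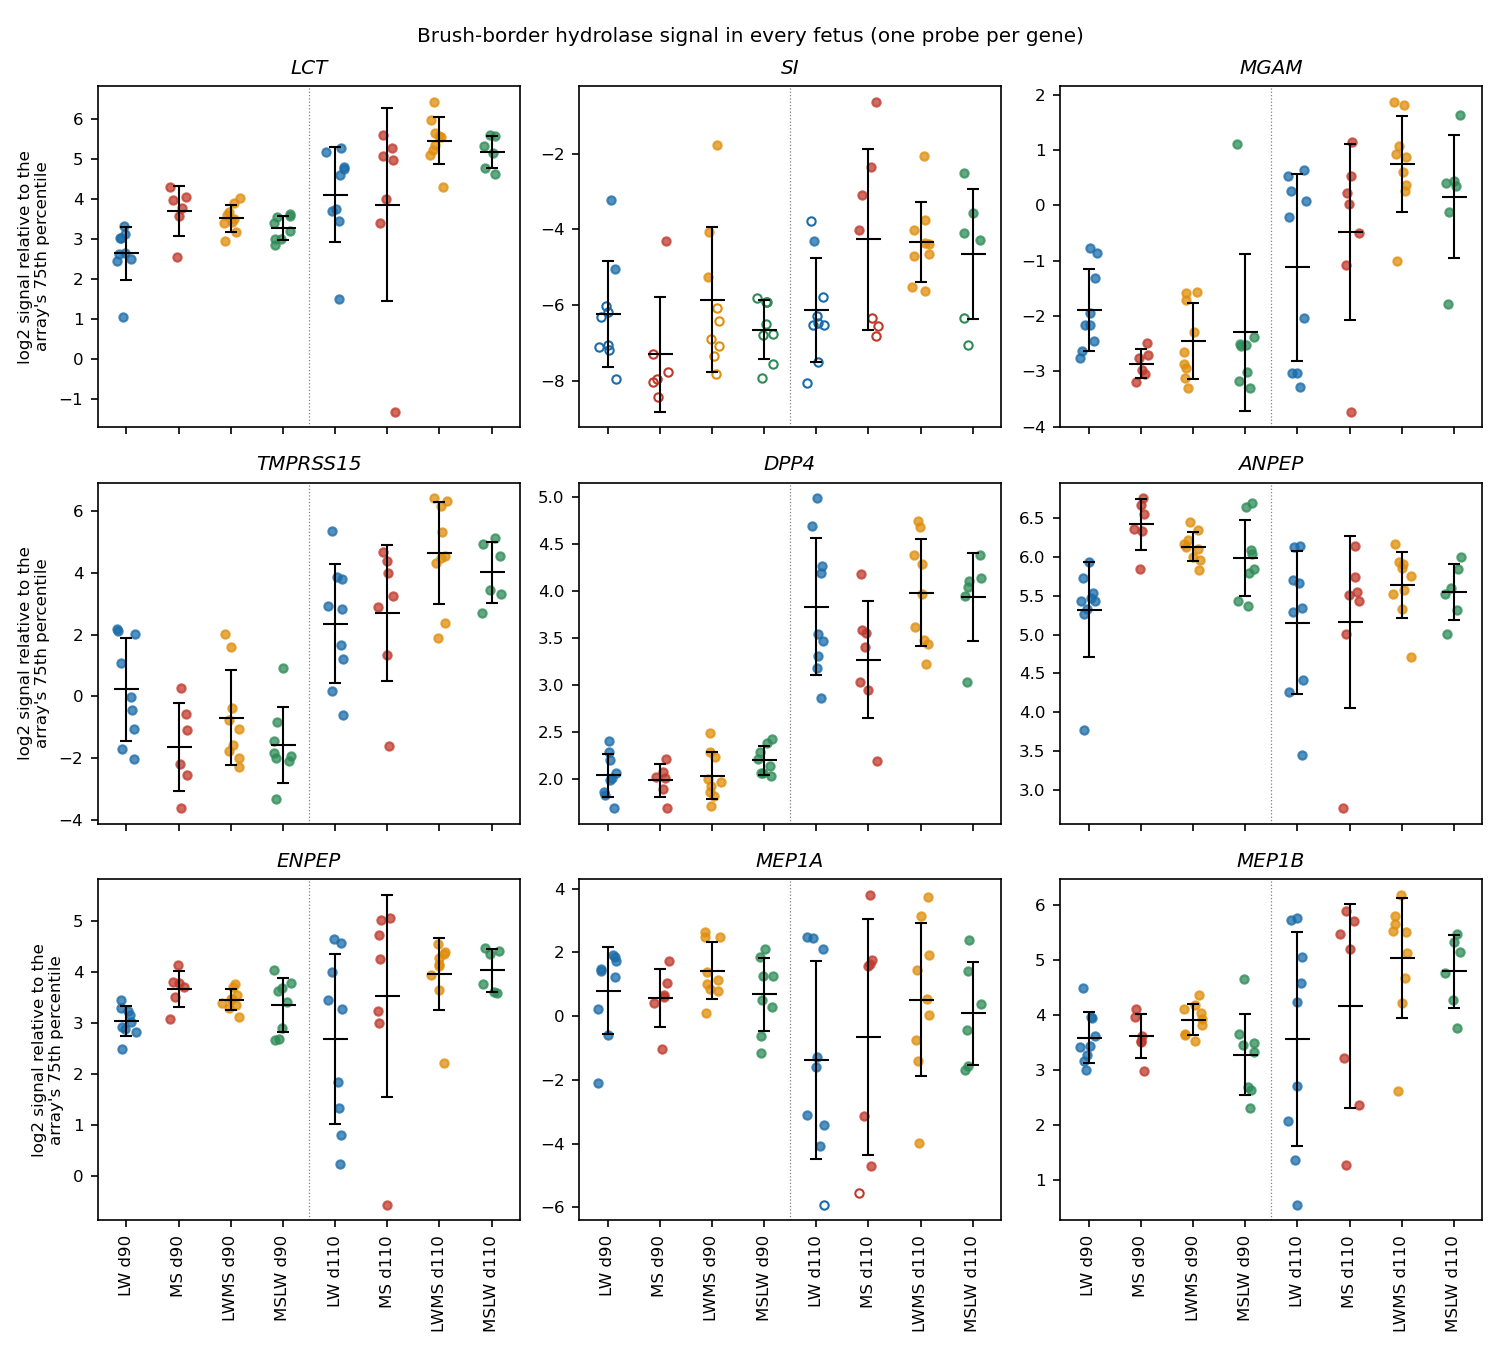
Log2 signal above or below the array's 75th percentile (y axis) in each of the 63 fetuses for the 9 genes tested, by genotype and day (x axis, d90 and d110). Filled circles are signals well above background and open circles are not, and black bars are the mean and SD of a group. The means of DPP4 and TMPRSS15 were higher at day 110 in each genotype, although TMPRSS15 did not pass in LW. ENPEP, MEP1A and MEP1B spread out at day 110 in LW, MS and LWMS.

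Between day 90 and day 110, averaged over the 4 genotypes, TMPRSS15, MGAM, DPP4 and LCT rose and ANPEP fell, of 8 genes. The ninth, SI, entered the test only through 1 group of day 110 and is described apart. A difference passed when its adjusted p did not exceed 0.01 and its size was 0.5 or more on the log2 scale (limma, Benjamini-Hochberg over all probes tested). By probe, 6 of 17 were higher and 3 lower, where 13.8% of all probes tested were called (6.07% higher and 7.71% lower). The median log2 difference over the 8 genes was 1.08, beside -0.02 over all probes. MEP1A, MEP1B and ENPEP did not pass. LCT, MGAM, DPP4, MEP1B and TMPRSS15 had a higher mean at day 110 on 8 of the 8 slides. ANPEP and MEP1A had a lower mean on 7 slides, and ENPEP a higher one on 5.

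**Figure D2:**
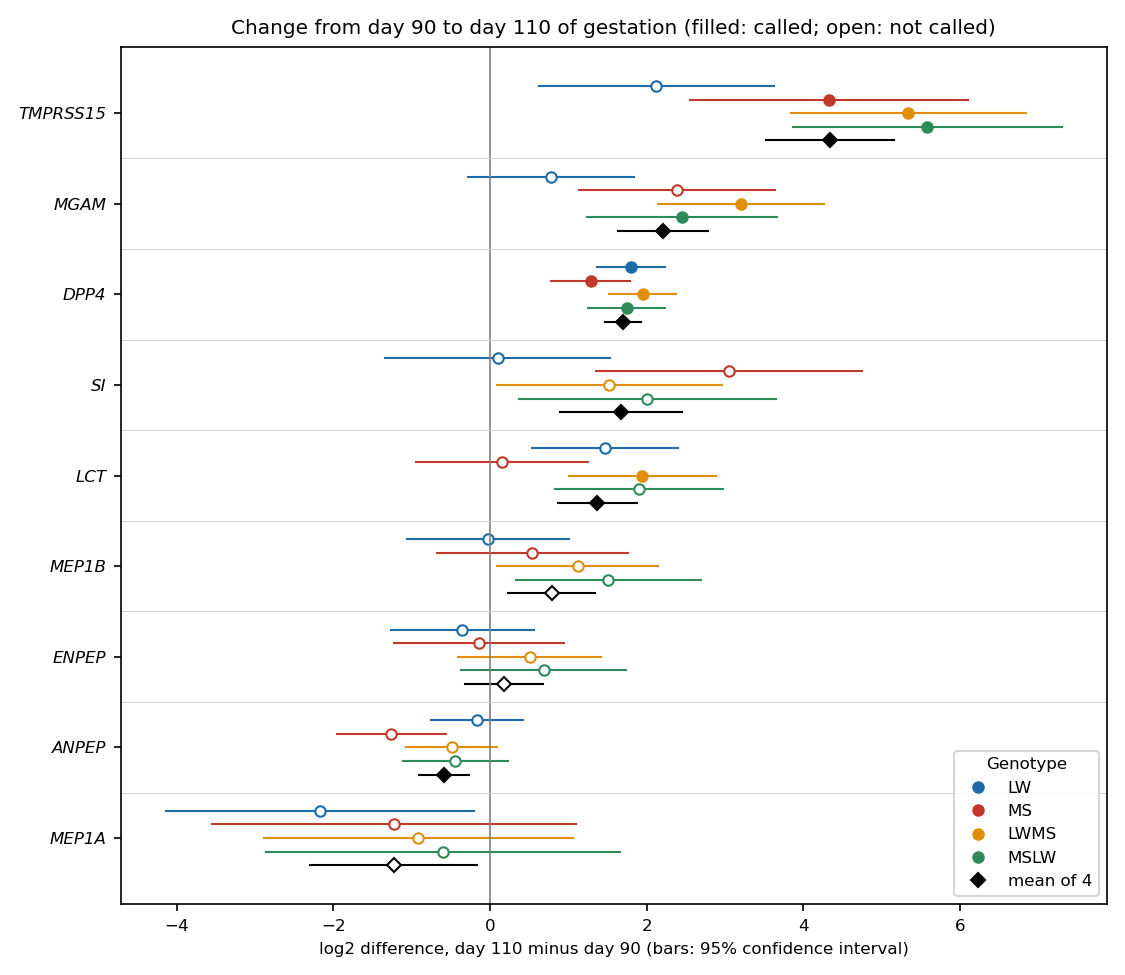
Log2 difference between day 110 and day 90 (x axis, bars are 95% confidence intervals) for each gene, in each genotype and as the mean of the 4. Filled symbols passed the threshold, and SI is drawn although its probe entered the test through 1 group. DPP4 passed in each of the 4 genotypes, and TMPRSS15 had the largest mean difference, 4.34.

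Lactase rose with age. In LW fetuses the LCT signal at day 90 had a lowest, median and highest value of 1.06, 2.65 and 3.33, and at day 110 of 1.497, 4.60 and 5.29. In MS these were 2.55, 3.89 and 4.30 at day 90 and -1.30, 4.97 and 5.60 at day 110. LWMS fetuses ranged from 2.95 to 4.03 (median 3.502) at day 90 and from 4.30 to 6.44 (median 5.55) at day 110. All day 110 fetuses of LWMS thus stood above all of day 90, and 8 of 9 did so in LW and 4 of 7 in MS. In MSLW the ranges were 2.85 to 3.63 (median 3.30) and 4.64 to 5.60 (median 5.24), again without overlap. Averaged over genotypes, the log2 difference was 1.37 (SE 0.25, adjusted p = 1.3164e-05), or 2.58-fold. Within genotypes only LWMS passed, with 1.94 (SE 0.47, adjusted p = 0.0016274). In that genotype 9.86% of all probes were called, and 6 of the 18 probes. The difference was 1.90 in MSLW (adjusted p = 0.0122), 1.47 in LW (adjusted p = 0.029958) and 0.16 in MS (adjusted p = 0.91233). Without MS fetus 632, the MS difference was 1.02 (adjusted p = 0.097995), and the LW and MSLW differences passed, with adjusted p of 0.0007285 and 0.00014077. Without LW fetus 575 both passed as well (adjusted p = 0.0051625 and 0.007054), the LW difference being 1.80, and the MSLW difference passed without MS fetus 407 too (adjusted p = 0.0099268).

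MGAM, whose product cuts glucose from short starch chains, rose as well. In LW its lowest, median and highest values were -2.76, -2.16 and -0.77 at day 90 and -3.29, -0.21 and 0.64 at day 110. In LWMS they were -3.30, -2.65 and -1.56 at day 90 and -1.01, 0.87 and 1.88 at day 110. The LWMS groups did not overlap, whereas in LW 5 fetuses of day 110 stood above and 3 below all LW fetuses of day 90. In MS the signal moved from a range of -3.19 to -2.49 (median -2.87) to one of -3.73 to 1.14 (median 0.02), where fetus 632 held the lowest value and the other 6 stood above all of day 90. MSLW fetuses ranged from -3.31 to 1.12 (median -2.53) at day 90 and from -1.78 to 1.63 (median 0.37) at day 110. Their day 90 range owed its upper end to fetus 450, as the next value was -2.39. Its mean difference over the genotypes was 2.20 (SE 0.29, adjusted p = 6.7681e-09), or 4.60-fold. LWMS with 3.20 (SE 0.53, adjusted p = 7.3184e-06) and MSLW with 2.45 (SE 0.61, adjusted p = 0.0040874) passed. The MSLW call was lost when fetus 476, 560, 688, 899 or 900 was left out, with adjusted p between 0.010272 and 0.019556. The difference was 2.38 in MS (SE 0.62, adjusted p = 0.010346) and 0.77 in LW (SE 0.53, adjusted p = 0.4046). In MS it passed without fetus 632, with 2.92 (adjusted p = 0.00061128), and also when any 1 of 9 other fetuses was left out.

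The SI signal was near background. It was well above background in 6 of 32 fetuses at day 90 and in 18 of 31 at day 110, and the probe passed the filter only through the LWMS group of day 110, where 9 of 9 arrays did, so that its difference with age is partly set by the filter and is given as a description. At day 110, values ranged from -8.06 to -3.77 in LW (median -6.48), from -6.83 to -0.62 in MS (median -4.01), from -5.62 to -2.05 in LWMS (median -4.38) and from -7.07 to -2.52 in MSLW (median -4.19). At day 90 the medians were -6.31, -7.88, -6.42 and -6.64 in the same order, with a highest value of -1.78 in LWMS fetus 525. SI was thus dim in LW at both ages, with 2 of 9 and then 1 of 9 arrays well above background. The fitted mean log2 difference was 1.67 (SE 0.39), and no single genotype passed. It includes many arrays at background, and it was 0.58 with the normexp background correction and 0.76 in the authors' processed values. By genotype the fitted value ran from 0.10 in LW to 3.05 in MS, but it rested largely on arrays at background, so these are not sizes of change. In MS, 1 of 6 arrays of day 90 and 4 of 7 of day 110 were well above background. In MSLW, 0 of 8 arrays of day 90 and 4 of 6 of day 110 were.

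TREH was well above background on 4 of 32 arrays at day 90 and 3 of 31 at day 110. These counts include MS fetus 532 (day 90) and MSLW fetus 851 (day 110), which had no TREH value. Its group medians lay between -7.85 and -6.57, and no test was made. TREH was thus not detectable in most fetuses with this probe.

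Enteropeptidase showed the largest difference with age among the 9 genes as the mean of the 4 genotypes. In LW the TMPRSS15 signal had a lowest, median and highest value of -2.04, -0.02 and 2.18 at day 90 and -0.61, 2.82 and 5.36 at day 110. In MS these were -3.62, -1.65 and 0.28 and then -1.62, 3.24 and 4.66. Fetuses of both breeds overlapped between ages, but 6 of 7 MS fetuses and 5 of 9 LW fetuses of day 110 exceeded all of their breed at day 90. LWMS fetuses ranged from -2.29 to 2.003 (median -1.05) at day 90 and from 1.87 to 6.42 (median 4.54) at day 110. MSLW ranged from -3.33 to 0.92 (median -1.89) and from 2.71 to 5.12 (median 3.99), without overlap. Over the 4 genotypes the log2 difference was 4.34 (SE 0.41, adjusted p = 2.7342e-13), or 20.3-fold. It was 5.58 in MSLW (SE 0.86, adjusted p = 4.4845e-06), 5.34 in LWMS (SE 0.75, adjusted p = 2.8206e-07) and 4.33 in MS (SE 0.88, adjusted p = 0.00070884), all of which passed. LW did not pass, with 2.12 (SE 0.75, adjusted p = 0.055655). The change in MS minus that in LW was 2.21 (95% confidence interval -0.12 to 4.53, adjusted p = 0.79279), so that a difference between the breeds in this change was not shown. The second TMPRSS15 probe gave a mean of 4.31 and the same calls.

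DPP4, which removes dipeptides from peptides with proline or alanine in the second position and inactivates incretin hormones, was the one gene called in each genotype. At day 90 its lowest, median and highest values were 1.69, 2.01 and 2.40 in LW, 1.69, 2.02 and 2.21 in MS, 1.71, 1.96 and 2.48 in LWMS, and 2.03, 2.17 and 2.42 in MSLW. At day 110 they were 2.86, 3.55 and 4.99 in LW, 2.18, 3.40 and 4.18 in MS, 3.22, 3.97 and 4.75 in LWMS, and 3.03, 4.07 and 4.38 in MSLW. The ages did not overlap in LW, LWMS and MSLW, and 30 of the 31 day 110 fetuses stood above all 32 of day 90, the exception being MS fetus 632. The mean log2 difference was 1.69 (SE 0.12, adjusted p = 2.2025e-18), or 3.24-fold. By genotype it was 1.80 in LW, 1.29 in MS, 1.95 in LWMS and 1.74 in MSLW, with adjusted p between 4.3879e-10 and 0.00042585. In LW, where 4.76% of all probes were called, the 2 DPP4 probes were the only ones of the 18 to pass. In MS, where 3.12% were called, 5 of the 18 passed, and in MSLW, where 5.43% were called, also 5.

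The array signal of ANPEP, a major aminopeptidase of the brush border, fell, whereas the study reported that the specific activity of this enzyme, like that of lactase, rose with age. That activity was measured in mucosa scraped from an adjacent segment. The RNA came from the whole wall, so the measures are not directly comparable. MS fetuses had the highest median ANPEP signal of day 90, 6.46 (range 5.85 to 6.76), and ranged from 2.76 to 6.14 (median 5.51) at day 110. Of the 7 MS fetuses of day 110, 6 lay below all MS fetuses of day 90. In LW the lowest, median and highest values were 3.78, 5.43 and 5.94 at day 90 and 3.44, 5.34 and 6.14 at day 110. Those of LWMS were 5.84, 6.13 and 6.45 and then 4.72, 5.76 and 6.17, and those of MSLW 5.37, 5.94 and 6.70 and then 5.002, 5.56 and 5.9996. All 4 genotypes overlapped between ages. Its mean difference was -0.59 (SE 0.16, adjusted p = 0.0020761), or 1.51-fold lower. It was -0.83 and -0.79 with the other ANPEP probes, which passed too. Their change with age differed from that of the brightest probe by -0.24 and -0.20 (permutation within genotypes, adjusted p = 0.00012 and 0.0309 over 24 tests between probes). The value lay close to the minimum: without MS fetus 632 it was -0.49, below the minimum difference, and with median centring it was -0.54 with an adjusted p of 0.01899. Within genotypes the difference was -1.26 in MS (SE 0.34, adjusted p = 0.014782) and between -0.49 and -0.17 in the others, none passing. A_72_P632095, the sequence of which is printed above, passed in MS with -1.59 (adjusted p = 0.0055198). The MS difference of the brightest probe shrank to -0.86 (adjusted p = 0.067144) without MS fetus 632, and passed without MS fetus 401, LW fetus 484 or LW fetus 575.

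ENPEP, the aminopeptidase that acts on acidic residues and on angiotensin II, did not pass in any genotype or on average. Its mean log2 difference was 0.17 (SE 0.25, adjusted p = 0.61876, 95% confidence interval -0.32 to 0.67), and 0.35 (adjusted p = 0.17555) without MS fetus 632. The range was wider at day 110 in LW, MS and LWMS and narrower in MSLW. At day 90 the signal had a lowest, median and highest value of 2.48, 3.02 and 3.46 in LW, 3.09, 3.74 and 4.15 in MS, 3.12, 3.47 and 3.77 in LWMS, and 2.67, 3.52 and 4.05 in MSLW. At day 110 these were 0.23, 3.28 and 4.65 in LW, -0.57, 4.26 and 5.07 in MS, 2.21, 4.16 and 4.55 in LWMS, and 3.59, 4.06 and 4.47 in MSLW. Of the 31 fetuses of day 110, 14 lay above and 6 below all fetuses of day 90.

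The meprin subunits form homo- and hetero-oligomers at the villus surface. MEP1B values at day 110 were 0.56, 4.24 and 5.75 in LW (lowest, median, highest), 1.27, 5.19 and 5.88 in MS, 2.62, 5.51 and 6.18 in LWMS, and 3.77, 4.95 and 5.46 in MSLW. At day 90 all MEP1B values lay between 2.32 and 4.66, so that 18 fetuses of day 110 were above and 4 below that range. The mean log2 difference of MEP1B was 0.78 (SE 0.28, adjusted p = 0.020593). It did not pass with all fetuses weighted equally, but passed with array weights (1.09, adjusted p = 2.3198e-05) and without LW fetus 572 (0.85, adjusted p = 0.0096424), LW fetus 575 (0.88, adjusted p = 0.0055753), LWMS fetus 609 (0.86, adjusted p = 0.0083302) or MS fetus 632 (0.90, adjusted p = 0.0043417). The second MEP1B probe, O4891, gave -0.04 (adjusted p = 0.93713), and the probes differed in their change with age by -0.82 (permutation within genotypes, p = 1e-05, the smallest possible, adjusted p = 0.00012 over 24 tests between probes).

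MEP1A had the widest range of the 9 genes at day 110. Its values at day 90 ran from -2.10 to 1.91 in LW (median 1.42), from -1.02 to 1.72 in MS (median 0.64), from 0.09 to 2.65 in LWMS (median 1.13) and from -1.16 to 2.09 in MSLW (median 0.87). At day 110 they ran from -5.92 to 2.49 in LW (median -1.61), from -5.57 to 3.81 in MS (median 1.57), from -3.99 to 3.72 in LWMS (median 0.54) and from -1.69 to 2.38 in MSLW (median -0.03). In all, 8 fetuses of day 110 lay below all of day 90, and 3 lay above. The mean log2 difference was -1.23 (SE 0.53, adjusted p = 0.060469) and did not pass. The second probe gave -1.36 (adjusted p = 0.031546).

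Neighbouring groups were close in level, although the ages were apart in several genotypes as given above. When the groups of a gene were ordered by mean signal, the step between neighbours exceeded the larger of their SDs once in 7 steps for DPP4, from MS at day 110 (3.27 ± 0.63, SD, n = 7) to MSLW at day 90 (2.20 ± 0.15, SD, n = 8). It did so once for TMPRSS15, from LW at day 110 (2.35 ± 1.92, SD, n = 9) to LW at day 90 (0.23 ± 1.67, SD, n = 9). It did so in no step for the other genes. LWMS at day 110 had the highest mean of LCT (5.46 ± 0.59, SD, n = 9), MGAM (0.75 ± 0.87), DPP4 (3.98 ± 0.57), MEP1B (5.03 ± 1.08) and TMPRSS15 (4.64 ± 1.65). MS at day 90 had the highest mean of ANPEP (6.42 ± 0.33, SD, n = 6).

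Pooled over the 4 genotypes, the spread between fetuses of a group was wider at day 110 for each of the 8 genes other than SI. With SI counted, it was wider for 8 of 9 genes in LW, 9 in MS, 8 in LWMS and 4 in MSLW. The share of all probes that were wider in each genotype was not determined. SI was at background on many arrays, and its SD was narrower in LW and LWMS and wider in MS and MSLW. In MSLW the SD was smaller at day 110 for ENPEP (0.53 and then 0.43), MEP1B (0.74 and 0.66), ANPEP (0.49 and 0.36), MGAM (1.42 and 1.11) and TMPRSS15 (1.23 and 0.98). For ENPEP the pooled SD within groups was 0.36 at day 90 and 1.38 at day 110, a ratio of 3.82 that lay at the 99.7th percentile of all probes tested. The ratio was 3.04 for MEP1B, 2.93 for DPP4, 2.71 for LCT and 2.55 for MEP1A, beside a median of 1.09 over all probes. Without MS fetus 632 the ratio was 3.05 for ENPEP, 2.85 for MEP1B, 2.78 for DPP4, 2.43 for MEP1A and 1.68 for LCT, beside a median of 1.04. TMPRSS15 (1.19) was close to the median with all fetuses, and so was SI (1.12), many of whose arrays were at background. ANPEP (1.75) and MGAM (1.52) lay between. These ratios are descriptions without a test.

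The low values fell in the same fetuses. At day 110, ENPEP was lowest in MS fetus 632 (-0.57), LW fetuses 575 (0.23), 559 (0.79), 572 (1.32) and 557 (1.84) and LWMS fetus 609 (2.21). MEP1A in these fetuses lay between -5.92 and -3.12, and MEP1B between 0.56 and 2.72. MS fetuses 627 and 623 were next in ENPEP, at 2.99 and 3.23, with MEP1A at -3.13 and -4.70. In these 8 fetuses the mean of the enterocyte markers was also low, from 0.83 in fetus 632 to 4.99 in fetus 627, and no other fetus of day 110 was below 5.52. Their epithelium markers were not low, at 3.63 to 4.35 beside a range of 3.52 to 4.35 over all fetuses of day 110, while their smooth muscle markers were at 5.17 to 5.69 of a range of 4.37 to 5.69. DPP4 was lowest in fetus 632 (2.18). In the other 7 it lay on both sides of the day 110 median of 3.61, at 3.18 in fetus 559, 3.47 in 557, 3.55 in 575 and in 623, 4.18 in 627, 4.27 in 572 and 4.28 in 609. The 8 fetuses lay on slides 1, 2, 3, 4, 5, 6 and 8.

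**Figure D3:**
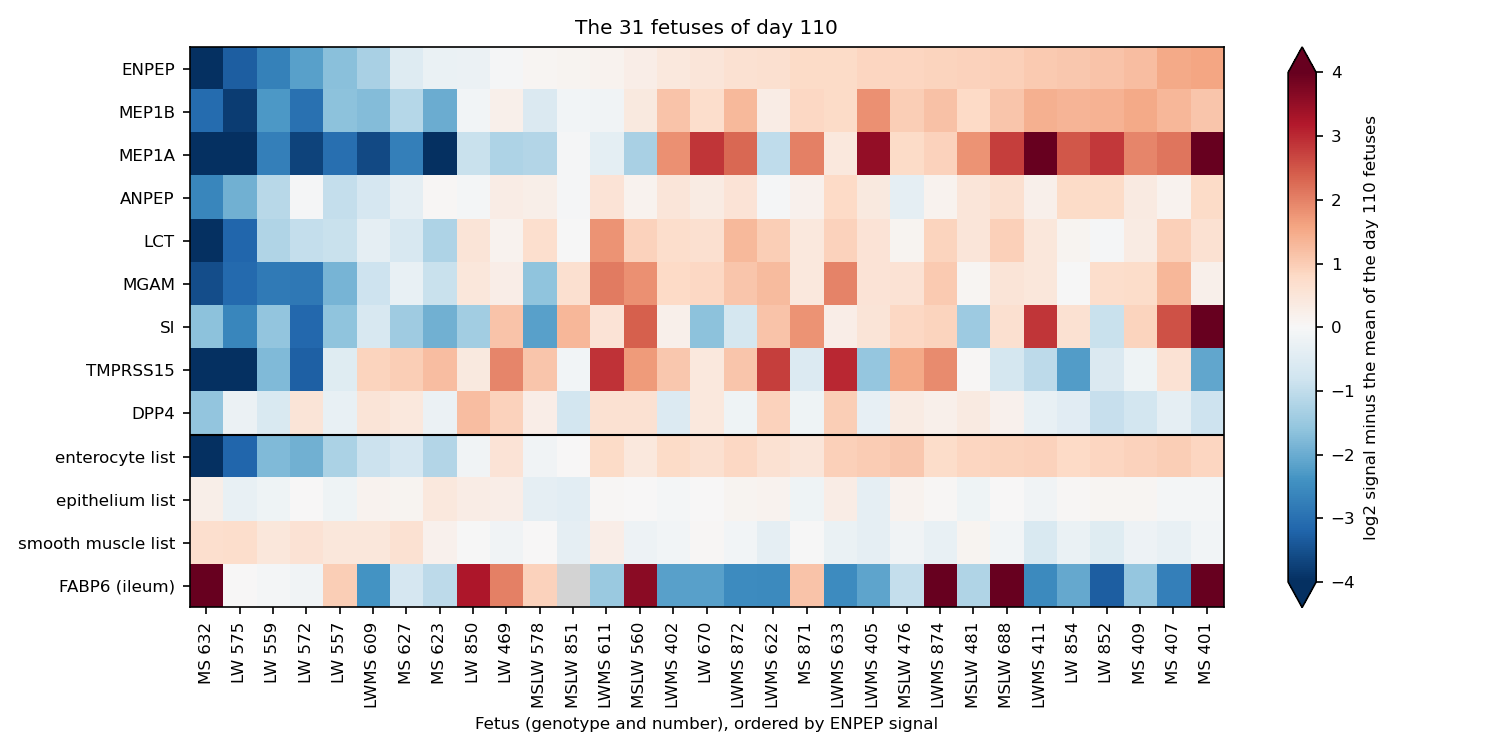
The 31 fetuses of day 110, ordered by ENPEP signal (x axis), with the log2 signal of each gene or marker list mean minus the mean of the day 110 fetuses in colour (blue low, red high, grey missing). At the left, ENPEP, MEP1A, MEP1B and the enterocyte list are low together, and the epithelium list is not low. DPP4 is lowest in MS fetus 632 at the far left and lies on both sides of its mean in the fetuses next to it.

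Across fetuses, deviations from group means were correlated between most members at day 110 and between few at day 90. Among the 8 genes other than SI, 18 of the 28 pairs had a Pearson r over 0.5 at day 110, with a median r of 0.66 (n = 31). At day 90 only 2 pairs did, and the median was -0.01 (n = 32). The share among pairs of all probes was not determined at either age, so these counts are not shown to be particular to the members. With permutation of fetuses within groups and adjustment over 72 relations, those with SI included, 18 of the 28 pairs were positive and none negative at day 110 at an adjusted p under 0.05, and 3 were positive and 1 negative at day 90. The tightest pairs at day 110 were ENPEP with MEP1B (r = 0.93, rho = 0.96, permutation adjusted p = 0.00012 for r and 0.00018 for rho) and MEP1A with MEP1B (r = 0.93, rho = 0.93, the same adjusted p). Without the 2 fetuses farthest from the median of the first gene these r were 0.94 and 0.91. ANPEP with ENPEP gave 0.90 (rho = 0.80, permutation adjusted p = 0.00012 and 0.000288) and 0.80 without the 2 farthest fetuses. LCT with ANPEP gave 0.87 (rho = 0.76, permutation adjusted p = 0.000144 and 0.00054) and 0.69 without them. The pairs with r over 0.5 at day 90 were ENPEP with MEP1B, with 0.73 (rho = 0.61, permutation adjusted p = 0.000309 and 0.00455) and 0.65 without the 2 farthest fetuses, and LCT with ANPEP, with 0.67 (rho = 0.41, permutation adjusted p = 0.00654 and 0.0652) but 0.31 without the 2 farthest. MEP1A with MEP1B had an r of -0.07 at day 90 (rho = 0.08, permutation adjusted p = 0.832 and 0.788).

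DPP4 and TMPRSS15 were correlated with each other at day 110 (r = 0.66, rho = 0.69, permutation adjusted p = 0.00126 and 0.000775, and r = 0.65 without the 2 farthest fetuses). DPP4 had r of -0.19 with MEP1A, -0.03 with MEP1B and 0.16 with ENPEP, with adjusted p of 0.48, 0.915 and 0.585 by permutation. TMPRSS15 with LCT gave 0.63 (rho = 0.40, permutation adjusted p = 0.0089 and 0.0942), but 0.31 without the 2 farthest fetuses, so that this relation rested on them. TMPRSS15 with MGAM gave 0.64 (rho = 0.54, permutation adjusted p = 0.00318 and 0.0121) and 0.46 without the 2 farthest fetuses. With the peptidases TMPRSS15 had r of 0.45 (ENPEP), 0.45 (ANPEP), 0.29 (MEP1B) and 0.04 (MEP1A), with permutation adjusted p of 0.085, 0.0872, 0.285 and 0.906.

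**Figure D4:**
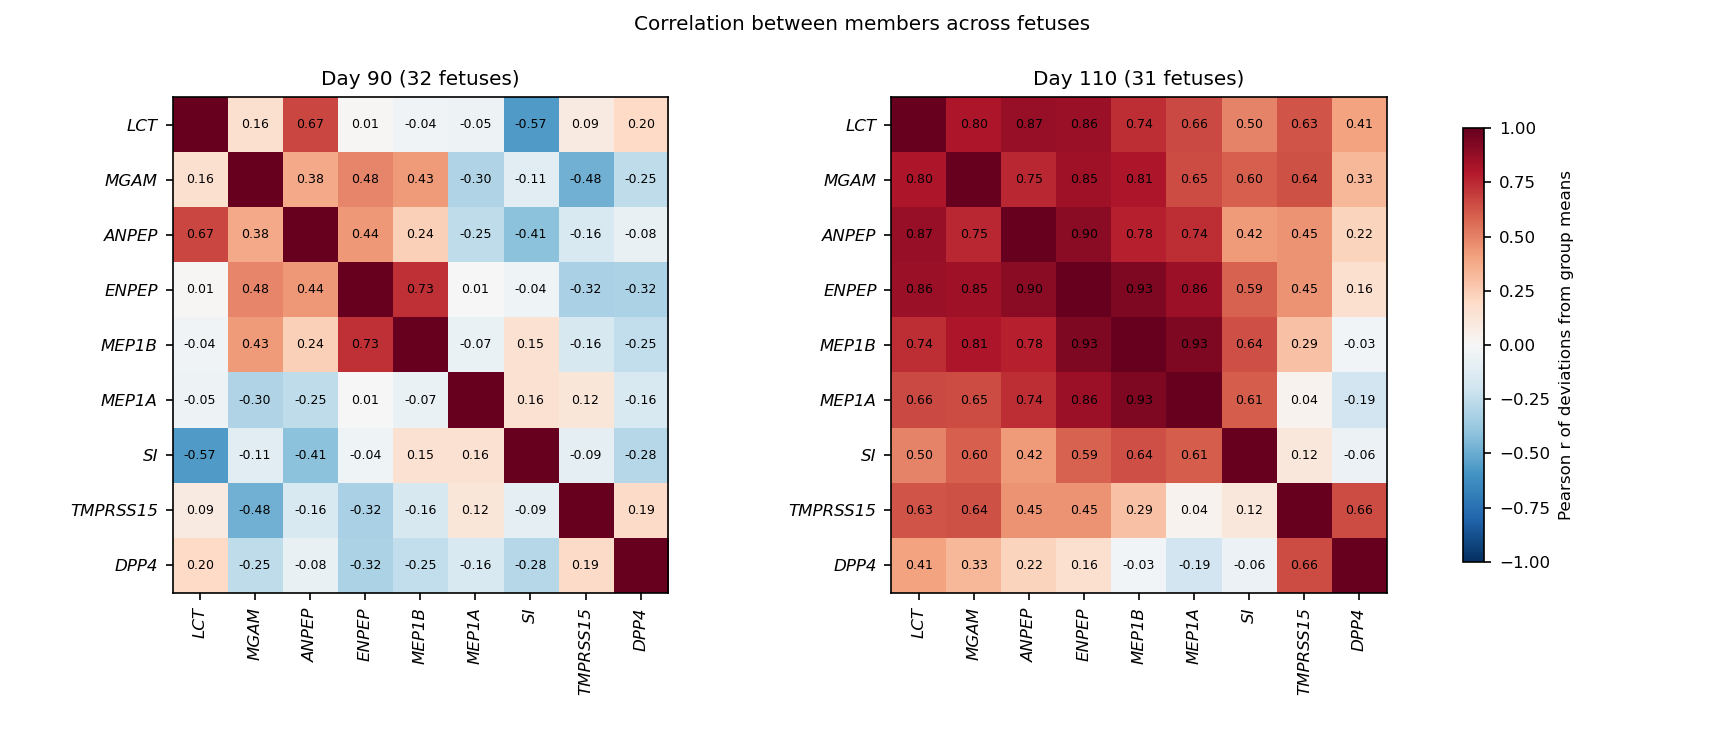
Pearson r between genes over fetuses after subtraction of group means (colour and printed values), at day 90 (32 fetuses, left) and day 110 (31 fetuses, right). At day 110, LCT, MGAM, ANPEP, ENPEP, MEP1A and MEP1B form a block of r from 0.65 to 0.93, and at day 90 the same pairs run from -0.30 to 0.73.

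The same deviations were compared with those of marker lists, in 144 relations. At day 110, ENPEP followed the enterocyte list (r = 0.98, rho = 0.96, permutation adjusted p = 9e-05 and 0.000131, and r = 0.96 without the 2 farthest fetuses). It opposed the smooth muscle list (r = -0.84, rho = -0.85, permutation adjusted p = 9e-05 and 0.000131, and r = -0.83 without them) and the fibroblast list (r = -0.83, rho = -0.86, the same adjusted p, and r = -0.75 without them). The enteric neuron and glia list also ran against ENPEP (r = -0.84, rho = -0.88), MEP1A (r = -0.88, rho = -0.87) and MEP1B (r = -0.88, rho = -0.90), with the same adjusted p. LCT, MGAM, ANPEP, MEP1A and MEP1B also followed the enterocyte list, with r from 0.83 to 0.92 (rho from 0.77 to 0.96, permutation adjusted p = 9e-05 for each r and 0.000131 to 0.00056 for rho), and r from 0.76 to 0.95 without the 2 farthest fetuses. With the epithelium list ENPEP had an r of 0.05 (rho = 0.08, permutation adjusted p = 0.881 and 0.844). DPP4 had an r of 0.49 with the epithelium list (rho = 0.44, permutation adjusted p = 0.0268 and 0.0561, and r = 0.65 without the 2 farthest fetuses) and of 0.22 with the enterocyte list (rho = 0.03, permutation adjusted p = 0.473 and 0.939). TMPRSS15 had an r of 0.47 with the epithelium list (rho = 0.49, permutation adjusted p = 0.0343 and 0.027, and r = 0.58 without them). With the enterocyte list its r was 0.53 (rho = 0.20, permutation adjusted p = 0.0496 and 0.538), but 0.16 without the 2 farthest fetuses. The part of cell composition in these values was not tested.

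At day 90, MGAM opposed the list of crypt and cycling cells (r = -0.79, rho = -0.57, permutation adjusted p = 0.00199 and 0.00582, and r = -0.54 without the 2 farthest fetuses). MSLW fetus 450 had the highest MGAM signal of day 90 (1.12) and the lowest value of that list (-0.02). LCT opposed that list too (r = -0.39, rho = -0.55, permutation adjusted p = 0.00769 and 0.00563, and r = -0.42 without the 2 farthest fetuses). The same held for ANPEP by r (r = -0.49, rho = -0.44, permutation adjusted p = 0.0072 and 0.0542, and r = -0.54 without them). MEP1B followed the enterocyte list at day 90 (r = 0.74, rho = 0.74, permutation adjusted p = 9e-05 and 0.000222, and r = 0.67 without the 2 farthest fetuses). So did ENPEP (r = 0.67, rho = 0.58, permutation adjusted p = 0.000814 and 0.00875). The r of LCT (-0.04), MGAM (0.01), MEP1A (0.02) and ANPEP (0.30) with that list had permutation adjusted p of 0.201 or more.

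The breeds and their crosses were compared next, and no member passed in any of these comparisons with the processing used here. For the sow, 1 of the 18 probes passed in the authors' values (15.2% of all probes) and 1 with normexp (13.5%). With array weights 4 of the 18 probes passed for MS minus LW at day 90 (7.2% of all probes), 9 at day 110 (15.7%), 1 for the change with age in MS minus that in LW (0.138%), 13 for the sow (32.7%) and 8 for the sire (15.5%). For MS minus LW at day 90, 3.58% of all probes were called and 0 of the 18. The lowest adjusted p among the 9 genes was 0.026994, for ANPEP, which was 1.097 higher in MS (SE 0.33, 95% confidence interval 0.44 to 1.75). An unadjusted p under 0.05 was reached by 18% of all probes and by 3 of the 8 genes other than SI: ANPEP, LCT (1.06 higher in MS) and TMPRSS15 (-1.86). Without MS fetus 632, which is of day 110 but shares the estimate of spread, ANPEP passed at day 90 with an adjusted p of 0.0053842.

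For MS minus LW at day 110, 5% of all probes were called, and the lowest adjusted p of a gene was 0.1095. An unadjusted p under 0.05 was reached by 23.3% of all probes and by 1 of the 8 genes other than SI, DPP4 (-0.56). SI was well above background on 4 of 7 MS and 1 of 9 LW arrays, and no size is given for it. ENPEP differed by 0.85 (95% confidence interval -0.13 to 1.83, adjusted p = 0.29806), which became 1.54 (adjusted p = 0.0088417) without MS fetus 632. The change with age in MS minus that in LW was called for 0.0173% of all probes and for no member. An unadjusted p under 0.05 was reached by 6.61% of all probes and by 1 of the 8 genes other than SI, ANPEP (-1.09, adjusted p = 0.60955, and -0.69, adjusted p = 0.82164, without MS fetus 632).

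Fetuses of MS and of LW sows were compared over both sire breeds and ages at an adjusted p under 0.05. Of all probes 16% were called for the sow, 6.95% for the sire and 0.388% for the interaction of the sow with age, and 0 of the 18 in each. An unadjusted p under 0.05 was reached by 29.9% of all probes for the sow, 18.9% for the sire and 10.9% for the interaction. Of the 8 genes it was reached by 1 for the sow (ANPEP, 0.34 higher with MS sows, adjusted p = 0.14016), by 0 for the sire and by 1 in the interaction (MGAM, 1.18, adjusted p = 0.4396), so that the members were not above the share of all probes for the sow and the sire. Without MS fetus 632, LCT (0.55, adjusted p = 0.017885), ANPEP (0.44, adjusted p = 0.015914) and ENPEP (0.55, adjusted p = 0.043137) passed for the sow, where 21.3% of all probes then did.

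Averaged over both ages, crossbred fetuses had a higher mean than the midpoint of the purebreds for each of the 8 genes other than SI, by 0.26 to 0.84, but none passed. At day 110 both crosses had a higher mean than both purebreds for each of these genes, whereas at day 90 no gene showed this. For TMPRSS15 the day 90 means were -0.69 in LWMS and -1.57 in MSLW, beside 0.23 in LW and -1.63 in MS. The purebred midpoint includes MS fetus 632, which stood low for LCT (-1.30), ANPEP (2.76) and ENPEP (-0.57). Of the day 110 fetuses named above with low enterocyte markers, all but LWMS fetus 609 were purebred. Of all probes 0.0913% were called. In limma's test LCT had the lowest adjusted p, 0.23626, with a difference of 0.78 (SE 0.25, 95% confidence interval 0.27 to 1.28). MGAM (0.63) and DPP4 (0.26) also had an unadjusted p under 0.05, as had 10.2% of all probes. The median over the 8 genes was 0.58, beside -0.01 over all probes. In the enterocyte list the median change with age was -0.53 in LW and -0.48 in MS, but 0.90 in LWMS and 0.92 in MSLW. Their part in the values of the members was not tested.

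Probes of one gene disagreed between the breeds in 2 cases, DPP4 and MEP1A. For each fetus the signal of a second probe was set against that of the brightest probe on the same array, for 8 such pairs of different sequence, with exact permutation tests between MS and LW at each age. The MEP1A probe A_72_P170236 stood at -2.58 ± 0.35 (SD, n = 9) against the brightest probe in the LW fetuses of day 90 and at -0.52 ± 0.36 (SD, n = 6) in the MS fetuses of that age. LW fetuses reached at most -2.01 and MS fetuses at least -1.11, so that the breeds did not overlap, and they differed by 2.06 (exact permutation p = 2e-04, adjusted p = 0.0012 over 24 tests). LWMS (-1.74 ± 0.31, SD, n = 9) and MSLW (-1.85 ± 0.73, SD, n = 8) lay between them. At day 110 the breeds differed by 1.55 (exact permutation p = 0.00192, adjusted p = 0.00923) and overlapped, LW being at -2.59 ± 0.85 (SD, n = 9) while MS was at -1.04 ± 0.51 (SD, n = 7). At that age A_72_P170236 was well above background on 4 of 9 LW and 5 of 7 MS arrays. Over the arrays where both probes were, 4 LW and 5 MS, the difference was 1.58 (exact permutation p = 0.0159, not adjusted), without overlap. Accordingly, MS minus LW at day 90 was -0.23 with the brightest MEP1A probe and 1.83 with A_72_P170236 (adjusted p = 0.95085 and 0.38328).

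The DPP4 probe O11718 stood at -1.89 ± 0.12 (SD, n = 9) against the brightest probe in LW fetuses of day 110, and at -1.21 ± 0.26 (SD, n = 7) in MS fetuses of the same age. The breeds did not overlap and differed by 0.69 (exact permutation p = 8.74e-05, the smallest possible, adjusted p = 0.000699). At day 90 they differed by 0.39 (exact permutation p = 0.005, adjusted p = 0.02). LWMS at day 110 lay at -1.56 ± 0.13 (SD, n = 9) and MSLW at -1.82 ± 0.26 (SD, n = 6). The sign of MS minus LW at day 110 thus depended on the probe, with -0.56 for the brightest and 0.12 for O11718 (adjusted p = 0.1095 and 0.80227). With age, by contrast, the DPP4 probes gave 1.69 and 1.60. Neither ANPEP, ENPEP, MEP1B nor TMPRSS15 had an adjusted p under 0.05 for a breed difference between probes.

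**Figure D5:**
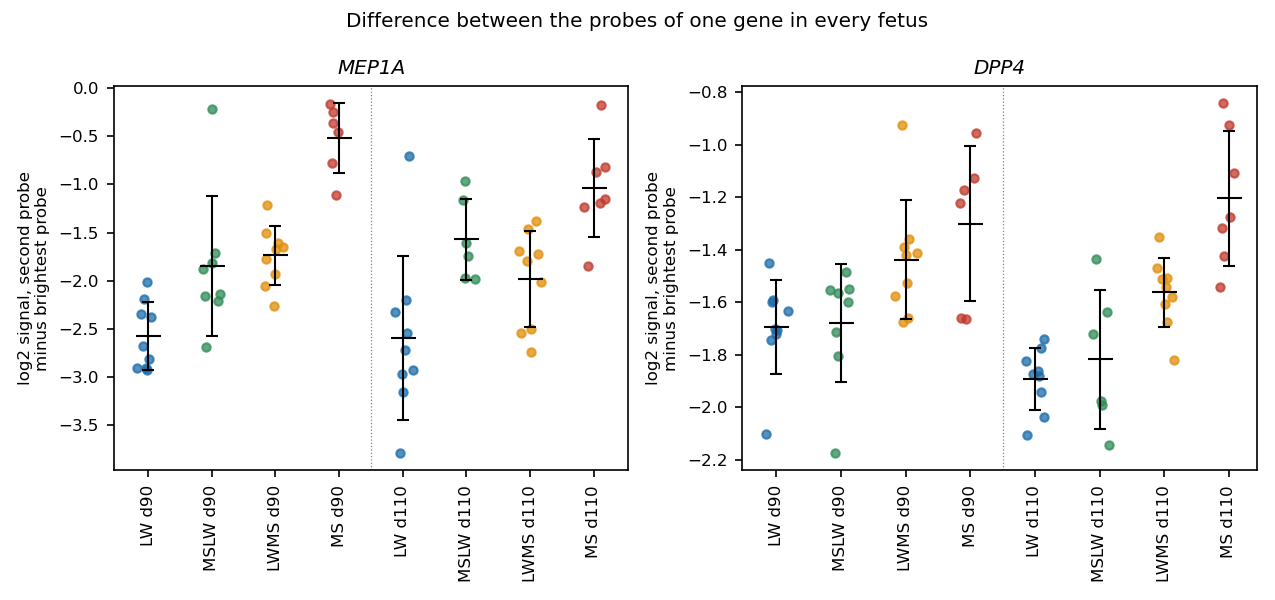
Log2 signal of a second probe minus that of the brightest probe of the same gene (y axis) in every fetus, for MEP1A (A_72_P170236, left) and DPP4 (O11718, right), by genotype and day (x axis). Black bars are the mean and SD of a group. LW and MS do not overlap for MEP1A at day 90 and for DPP4 at day 110, and the means of the crosses lie between.

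Probes with the same sequence measured the same. In 5 pairs of identical sequence a member probe was repeated on the array, and over the 63 fetuses each pair had r from 0.997 to 0.999 and a mean absolute difference of at most 0.09. ENPEP O11800 and A_72_P035326 were such a pair and are not independent.

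The genes most like each member were sought among 9769 others by Pearson r over all 63 fetuses, as a description in which age and array are shared. LCT was most like SLC5A1, the sodium-dependent glucose transporter (r = 0.90). DPP4 was most like FABP1, a fatty acid binding protein (r = 0.90), and TMPRSS15 most like SLC4A4, a bicarbonate transporter (r = 0.90). ENPEP was most like MME, the membrane peptidase neprilysin (r = 0.95). MEP1B was most like GK, glycerol kinase (r = 0.94), MGAM most like SLC5A10 (r = 0.87), MEP1A most like ORMDL1 (r = 0.87) and ANPEP most like CLC-5 (r = 0.81). SI had no gene above 0.68, reached with TRIM63. After group means were subtracted, ENPEP was most like FABP2 (r = 0.96), the intestinal fatty acid binding protein.

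Other membrane hydrolases of the enterocyte gave values beside which the members can be read. Of 15 such genes tested, 7 rose and 2 fell with age as the mean of genotypes, where 6.07% of all probes were higher and 7.71% lower. Those that rose included DPEP1, a dipeptidase (3.07, SE 0.29), ALPI, intestinal alkaline phosphatase (2.47, SE 0.34), NAALADL1 (1.82), FOLH1, which trims folate (1.68), ACE (0.81) and NT5E (0.64). Those that fell were CPO, a carboxypeptidase (-4.11, SE 0.64, adjusted p = 4.6695e-07), and XPNPEP2, an aminopeptidase P (-1.17, SE 0.23, adjusted p = 4.161e-05). MME, which varied with ENPEP, did not pass (0.12, adjusted p = 0.77941). The list had a median log2 difference of 0.35. Among 7 genes of intracellular peptide handling, LAP3 (0.83) and CNDP2 (0.76) rose.

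Of 17 genes tested among regulators of enterocyte genes, 3 rose and 3 fell with age as the mean of genotypes, where 6.07% of all probes were higher and 7.71% lower. PDX1 (0.996), MAF (0.69) and HNF4G (0.53) rose. THRB (-1.39, adjusted p = 5.1113e-11) and THRA (-0.54), the thyroid hormone receptors, and PRDM1 (-0.75), a repressor that maintains the fetal enterocyte programme in mice, fell. Between the breeds 1 of the 17 passed at each age, where 3.58% of all probes did at day 90 and 5% at day 110. GATA4, which maintains jejunal identity in mice, was lower in MS at day 110 (-2.34, adjusted p = 0.001955), and ISX was higher in MS at day 90 (1.03, adjusted p = 0.005041). In the MS group of day 110, FABP6 was 3.56 in fetus 632 and 2.85 in fetus 401, and between -5.81 and -1.95 in the rest. SLC10A2, the other gene of the ileum list, was -2.82 in fetus 632 and -4.40 in fetus 401, and between -5.14 and -3.75 in the rest. High FABP6 was not confined to this group, being 2.40 in MSLW fetus 688 (day 110), 1.99 in LWMS fetus 825 (day 90) and 1.96 in MS fetus 532 (day 90).

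Of 66 cell type markers in 11 lists, 12 passed for the mean of genotypes (18.2%, beside 13.8% of all probes), 5 of them higher and 7 lower. Of the enterocyte list, FABP1 (2.55) and SLC5A1 (1.41) rose and APOB (-0.996) fell, out of 9. Of the epithelium list 1 of 9 rose (LGALS4, 0.73), with a median of 0.26. Of the smooth muscle list 1 of 8 fell (ACTA2, -0.55), of the fibroblast list 2 of 7 fell (COL1A1, -0.81, and COL1A2, -0.74), of the crypt list 1 of 6 fell (CCNB1, -0.54), of the neuron and glia list 2 of 6 fell (UCHL1, -0.64, and ELAVL4, -0.63), and of the leukocyte list 1 of 7 rose (CD163, 0.94). SPDEF (1.72) rose among 5 goblet and enteroendocrine genes, and none passed in the endothelium, ileum and exocrine pancreas lists, the 2 ileum genes having a median of -0.80. With each array scaled to its epithelium markers, TMPRSS15, MGAM, DPP4 and LCT kept their calls, but 24.4% of all probes were then called and their median moved to -0.28. This scaling does not use the enterocyte list, and the part of enterocyte content was not tested.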

How the data were processed

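Total RNA of 63 fetal jejunum samples was hybridised to Agilent one-colour porcine arrays (Cy3), 7 or 8 per slide on 8 slides that each held both ages. The authors deposited, per the file headers, intensities from Agilent Feature Extraction 10.10.1.1, with local background subtracted. They also deposited a table of log2 values of 39446 probes (column medians 8.61), limma being named in the submitters' notes. The study's methods name quality control and a normalization before the log2 step, without its algorithm. It served as an alternative.

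Here, log2 of the processed intensity was averaged over unflagged spots of a probe, then set against the array's 75th percentile. The 1319 control spots of 61625 were left out. A probe was tested when, in any group, 75% or more of the arrays had it well above background. Group means were fitted with limma 3.58.1 (R 4.3.3) over all fetuses, with Benjamini-Hochberg adjustment over 40515 probes. Calls needed an adjusted p of at most 0.01 and an absolute log2 difference of at least 0.5; for sow and sire, an adjusted p under 0.05, and for the breed by age interaction, one of at most 0.01. Correlations were tested with 100000 permutations within groups. Scripts were tested on simulated data.

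The genes named are the members, each by its brightest tested probe, with the lists of related genes and cell type markers. Members, lists and tests were chosen with earlier results of these data known. The comparison of probes of one gene, the relations with marker lists, and values without MS fetus 632, without SI or without dim arrays were chosen after the values were seen. The number of fetuses limits the precision. Array weights, other background corrections and scalings, other probe filters, the slide as a block, and fetuses left out were tried as alternatives. Arrays have no sequencing depth. The result for 1 related gene is not reported here.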

Additional observations from a re-analysis of the deposited data

Results flagged for a closer look

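In each group the highest and lowest fetus was compared with its neighbour (Dixon's test at the 95% level), for 9 genes in 8 groups. Of these 72 sets, 10 held a fetus that stood apart. Chance gives about 1 in 20 for independent sets, but the same fetuses and correlated genes recur here, so no excess is read from this count. MS fetus 632 at day 110 stood low for LCT (-1.30, next 3.41), ANPEP (2.76, next 5.002) and ENPEP (-0.57, next 2.99). LW fetus 484 at day 90 stood low for LCT (1.06, next 2.45) and ANPEP (3.78, next 5.26). LW fetus 575 at day 110 stood low for LCT (1.497, next 3.46), LWMS fetus 609 at day 110 for ENPEP (2.21, next 3.65) and MSLW fetus 851 at day 110 for DPP4 (3.03, next 3.94). MSLW fetus 450 stood high for MGAM at day 90 (1.12, next -2.39). MS fetus 532 was flagged for SI at day 90 (-4.32, next -7.30), but its neighbour was at background, so the size of that gap has no meaning.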

How the results depend on the processing

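Counts are of member probes called among 18. For the mean change with age 10 were called, 9 to 11 under the settings tried, and 10 to 11 when any 1 fetus was left out. Of all probes 13.8% were called. Under the settings that kept the minimum difference this share ran from 7.82% (normexp) to 24.4% (scaling to the epithelium markers). The counts of member probes include SI. Without it 9 of 17 were called, 8 to 10 under the settings tried and 9 to 10 when any 1 fetus was left out. LCT, MGAM, DPP4 and TMPRSS15 kept their calls in all of these. SI was not tested where probes had to be well above background on all arrays. Leaving out 1 fetus gave 2 to 3 calls in LW, 4 to 8 in MS, 6 to 6 in LWMS and 4 to 6 in MSLW. With all fetuses, 4.76%, 3.12%, 9.86% and 5.43% of all probes were called in these genotypes. With array weights, which gave MS fetus 632 the lowest weight (0.145), 5 probes were called in LW instead of 2 (8.13% of all probes), 9 in MS instead of 5 (4663 probes in all), and instead of 0 there were 4 for MS minus LW at day 90 (7.2%), 9 for MS minus LW at day 110 (15.7%), 1 for the interaction of breed with age (0.138%), 13 for the sow (32.7%) and 8 for the sire (15.5%). In the authors' values 8 were called in MS (3.51% of all probes) and 1 for the sow (15.2%), and with normexp 1 for the sow (13.5%), fewer than the share of all probes for the sow. Without MS fetus 632, chosen after the data were seen, 2 were called for MS minus LW at day 90 (4.13% of all probes), 2 at day 110 (5.41%) and 8 for the sow (21.3%). Signs turned for SI in LW with the slide as a block (-0.0056) and with scaling to the epithelium markers (-0.11), for LCT in MS (-0.13) and ENPEP as the mean (-0.081) with that scaling, for ENPEP in MS with array weights (0.71) and without fetus 632 (0.54), and for MEP1A in MS with array weights (0.29). With 1 fetus left out, they could also turn in LW for SI (to -0.20), ANPEP (to 0.046) and MEP1B (to 0.35), and in MS for LCT (to -0.13). None of these was called before or after, and the cause was not tested. Leaving out LW fetuses 484 and 469, or using the slide as a block, moved no count by over 1.5 times. No paired analysis was possible because fetus numbers are not shared between groups. SI and TREH are limited by signal near background, and p-values by litters that are not known here.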
